A study of Mus musculus with 6 samples.

Results

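The genes described here are 6 transcription factors known from the trophectoderm, *Cdx2*, *Gata2*, *Gata3*, *Tfap2a*, *Tfap2c* and *Elf5*, and 4 keratins of simple epithelia, *Krt7*, *Krt8*, *Krt18* and *Krt19*. They were chosen by gene symbol, and all 10 were found among the 19489 genes of the deposited table. mRNA was sequenced from mouse embryonic stem cells (ESCs) in 6 libraries. *Dppa3* OE ESCs carried the coding sequence of *Dppa3*, a maternal factor of the early embryo, behind the ubiquitous CAG promoter, and are labelled as *Dppa3* over expression. Control (Con) ESCs, labelled wild type, carried the same vector without an insert. Cells of both kinds were transfected, selected in puromycin and kept in serum with LIF, the cytokine that holds ESCs undifferentiated. Both stable OE lines, grown from picked colonies, and transient OE cells were made, in lines J1 and D3, and which of these gave the RNA is not given in the sources used here. The libraries form 3 numbered pairs of OE and Con. The third pair is labelled D7 (OE-D7 and Con-D7), a label that no source used here explains, and the other 4 libraries (OE-1, OE-2, Con-1 and Con-2) are called D0 after the study's own column heads. Whether D7 marks days of culture, a treatment or a differentiation is unknown, and with 1 D7 library per genotype the D7 condition and the culture that carried it cannot be told apart.

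The trophectoderm is the outer epithelium of the blastocyst and the source of the placental trophoblast, whereas ESCs derive from the inner cell mass. In outer cells of the mouse embryo Hippo signalling is low, Yap1 enters the nucleus and acts with Tead4, and *Cdx2* and *Gata3* are switched on, with Cdx2 repressing *Pou5f1*. Keratins polymerise as pairs of a type II chain (Krt7, Krt8) and a type I chain (Krt18, Krt19). Krt8 and Krt18 form the filaments that appear first in the mouse embryo, in the trophectoderm, and they are later found in most single-layered epithelia.

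The promoters of the 3 keratin genes with the largest changes are shown, and that of *Gata3*, which had the largest fold among the tested factors. All of these genes were higher in the D7 libraries than in the others. AP-2 proteins, which *Tfap2a* and *Tfap2c* encode, and GATA factors are themselves among the genes described. Of the 10 genes, 8 had a promoter in the RefSeq table used (GRCm38.p6), which spans 250 bases before to 50 bases after a start. The windows are chr15:101412153-101412452 on the plus strand for *Krt7*, chr15:102004293-102004592 on the minus strand for *Krt8*, chr15:102027966-102028265 on the plus strand for *Krt18* and chr2:9878551-9878850 on the minus strand for *Gata3*, each read from 5′ to 3′ along the gene. Capitals mark matches on either strand to an AP-2 motif (GCCNNNGGC), a GATA motif (AGATAA) or a TEAD motif (GGAATG), and no matches overlapped in these windows.
Krt7: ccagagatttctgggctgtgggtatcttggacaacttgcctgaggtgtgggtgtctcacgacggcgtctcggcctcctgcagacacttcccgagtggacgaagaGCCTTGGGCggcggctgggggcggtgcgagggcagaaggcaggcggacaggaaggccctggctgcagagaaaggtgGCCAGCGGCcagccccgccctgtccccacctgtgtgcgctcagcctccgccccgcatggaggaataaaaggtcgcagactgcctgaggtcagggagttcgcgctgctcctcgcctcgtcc
Krt8: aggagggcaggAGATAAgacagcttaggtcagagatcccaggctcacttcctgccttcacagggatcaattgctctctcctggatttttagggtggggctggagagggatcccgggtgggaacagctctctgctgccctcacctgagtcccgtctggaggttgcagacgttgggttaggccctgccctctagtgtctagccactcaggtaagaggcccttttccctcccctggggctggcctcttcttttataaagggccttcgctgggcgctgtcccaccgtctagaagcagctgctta
Krt18: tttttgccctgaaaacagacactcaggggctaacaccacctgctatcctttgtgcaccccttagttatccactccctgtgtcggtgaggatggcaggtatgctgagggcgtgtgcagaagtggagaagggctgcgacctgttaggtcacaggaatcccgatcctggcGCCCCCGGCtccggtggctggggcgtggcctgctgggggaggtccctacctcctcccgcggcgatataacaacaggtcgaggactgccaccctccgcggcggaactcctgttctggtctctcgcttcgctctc
Gata3: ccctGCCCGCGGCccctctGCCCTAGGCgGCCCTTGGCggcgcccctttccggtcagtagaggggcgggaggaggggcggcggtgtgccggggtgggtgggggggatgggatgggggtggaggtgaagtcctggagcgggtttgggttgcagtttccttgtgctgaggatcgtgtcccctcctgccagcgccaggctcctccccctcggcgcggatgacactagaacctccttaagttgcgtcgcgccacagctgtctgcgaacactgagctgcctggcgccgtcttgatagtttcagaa

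The AP-2 letters occurred in 16.6% of 32851 promoters of this length, the GATA letters in 11.2% and the TEAD letters in 14.7%. *Gata3* held 3 AP-2 matches, beginning 246, 231 and 221 bases before its start, and *Krt7* held 2, at 146 and 70 bases. *Krt18* held 1 AP-2 match, 83 bases before its start. *Krt8* held no AP-2 match and a GATA match 239 bases before its start, and none of the 4 windows held the TEAD letters. Windows not shown held other matches. *Gata2* held none at its first listed start, and at its second an AP-2 match at 222 bases and a TEAD match at 120. *Elf5* held a TEAD match at 173 bases, *Cdx2* an AP-2 match at 16, and *Tfap2a* none of these. The 4 promoters shown also differed in CpG content, with 21 CpG in *Krt7*, 17 in *Krt18*, 22 in *Gata3* and 6 in *Krt8*, where the median promoter held 7. *Krt7* (chr15:101412403-101427806), *Krt8* (chr15:101996711-102004342) and *Krt18* (chr15:102028216-102032026) lie on chromosome 15, with *Krt8* and *Krt18* 23873 bases apart, and *Krt19* lies on chromosome 11 (chr11:100140810-100145926).

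Estimated counts summed to between 17408954 and 18176939 per library, so that depth was even. *Dppa3* read 131 FPKM (fragments scaled for transcript length and library depth) in OE-D7 and 26.2 in Con-D7, and 279 in both OE-1 and OE-2 against 6.09 in Con-1 and 3.89 in Con-2, in the direction of the labels within each pair. All 6 libraries held the pluripotency factors that define ESCs. *Pou5f1* read 312 FPKM in OE-D7 and 384 in Con-D7 and 575 to 683 in D0, and *Sox2* and *Nanog* stayed above 172 FPKM in every library. Libraries of the same number varied together across genes, so a fit with the number as a replicate block is given beside the fit without it where the call of a described gene or the count of a list changed.

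*Krt8*, *Krt18* and *Krt7* had larger folds between the D7 libraries and the other 4 than any of the 6 factors, and reached far higher levels. *Krt8* was at 421 FPKM in OE-D7 and 250.1 in Con-D7, against 14.1 and 14.7 in OE-1 and OE-2 and 11.98 and 17.03 in Con-1 and Con-2. Its partner *Krt18* was at 580 FPKM in OE-D7 and 318 in Con-D7, against 9.69 and 17.8 in the OE and 9.63 and 20.6 in the Con libraries of D0. The groups did not overlap for either gene, and both stood near the top of all genes in the D7 pair. By FPKM *Krt18* ranked 114 of 19489 genes in OE-D7 and 178 in Con-D7, and between 3984 and 6672 in D0.

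*Krt7*, a type II keratin of ductal and trophoblast epithelia, was at 74.8 FPKM in OE-D7 and 39.1 in Con-D7, against 1.02 and 0.98 in OE-1 and OE-2 and 0.91 and 1.5 in Con-1 and Con-2. *Krt19*, the shortest of the keratins, which lacks a tail domain, was at 139 FPKM in OE-D7 and 92.7 in Con-D7. In D0 *Krt19* was at 15.0 and 44.5 FPKM in OE-1 and OE-2 and at 8.81 and 44.6 in Con-1 and Con-2. It thus varied between the D0 pairs as well, with pair 2 above pair 1 by 2.96 times in OE and 5.06 times in Con, where the same ratio for *Krt18* was 1.84 in OE and 2.14 in Con. The 4 keratins together summed to 1215 FPKM in OE-D7 and 700.3 in Con-D7, against 39.8 and 78.0 in the OE and 31.3 and 83.7 in the Con libraries of D0.

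The make-up of the keratin pool differed as well. *Krt19* exceeded *Krt18* in 3 of the 4 D0 libraries, with a *Krt19* to *Krt18* FPKM ratio of 1.55 in OE-1, 2.499 in OE-2, 0.915 in Con-1 and 2.16 in Con-2. In the D7 pair that ratio was 0.239 in OE and 0.291 in Con. The summed type II chains stood to the summed type I chains at 0.691 in OE-D7 and 0.703 in Con-D7. In D0 this ratio was 0.612 in OE-1, 0.251 in OE-2, 0.699 in Con-1 and 0.284 in Con-2, so D7 lay near pair 1. Pair 2 had more *Krt19* and more *Krt18* than pair 1. The *Krt8* to *Krt18* ratio in D7, 0.727 in OE and 0.785 in Con, instead lay nearer pair 2. It was 0.824 in OE-2 and 0.826 in Con-2, against 1.46 in OE-1 and 1.24 in Con-1. The *Krt7* to *Krt8* ratio was 0.177 in OE-D7 and 0.156 in Con-D7, against 0.067 to 0.088 in D0.

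Among the factors, *Gata3*, *Cdx2* and *Gata2* showed the largest folds and *Tfap2c* the highest level. *Gata2* (chr6:88193891-88207032), a zinc-finger factor that activates placental hormone genes in mouse trophoblast giant cells, was at 16.4 FPKM in OE-D7 and 7.22 in Con-D7, against 0.82 and 1.22 in OE-1 and OE-2 and 0.99 and 1.62 in Con-1 and Con-2. *Gata3* (chr2:9857078-9887953), which acts beside Cdx2 below Tead4 in the mouse trophectoderm, was at 6.30 FPKM in OE-D7 and 3.79 in Con-D7, against 0.46 and 0.35 in the OE and 0.34 and 0.16 in the Con libraries of D0. For both genes the D7 libraries lay above all D0 libraries. Both overlap long noncoding genes (*Gm38708* at *Gata2*, *4930412O13Rik* and *9230102O04Rik* at *Gata3*), and whether the counting used strand is not given in the sources used here.

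*Cdx2* (chr5:147300900-147307249), the homeobox factor that sets up the trophectoderm, stayed low. It was at 1.20 FPKM in OE-D7 and 1.49 in Con-D7, from 45 and 57 estimated counts, against 0.10 and 0.05 in OE-1 and OE-2 and 0.15 and 0.05 in Con-1 and Con-2, from 2 to 6 counts each. *Elf5* (chr2:103412098-103450989), an ETS factor that marks trophoblast stem cells and whose promoter is methylated in mouse ESCs, was at 0.66 FPKM in OE-D7 and 0.38 in Con-D7, from 26 and 16 counts, and at 0.05 to 0.13 in D0. Both were higher in the D7 libraries, yet *Cdx2* ranked only 12432 and 11924 of 19489 genes there and *Elf5* 13561 and 14345.

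The AP-2 genes behaved unlike the GATA genes. *Tfap2c* (chr2:172545678-172558622), which is needed for the mouse trophoblast lineage and is also active in ESCs and germ cells, was at 23.7 FPKM in OE-D7 and 18.6 in Con-D7, against 16.6 and 14.8 in OE-1 and OE-2 and 12.9 and 16 in Con-1 and Con-2. It was the highest factor in every library. *Tfap2a* (chr13:40713802-40738238), an AP-2 factor of trophoblast, surface ectoderm and neural crest, was at 1.54 FPKM in OE-D7 and 1.40 in Con-D7, against 1.49 and 2.07 in the OE and 0.95 and 1.49 in the Con libraries of D0. It was the only one of the 10 genes whose D7 values fell within its D0 range, and it overlaps *Gm26688*. The 6 factors summed to 49.9 FPKM in OE-D7 and 32.9 in Con-D7, against 15.4 to 19.6 in D0.

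**Figure D1:**
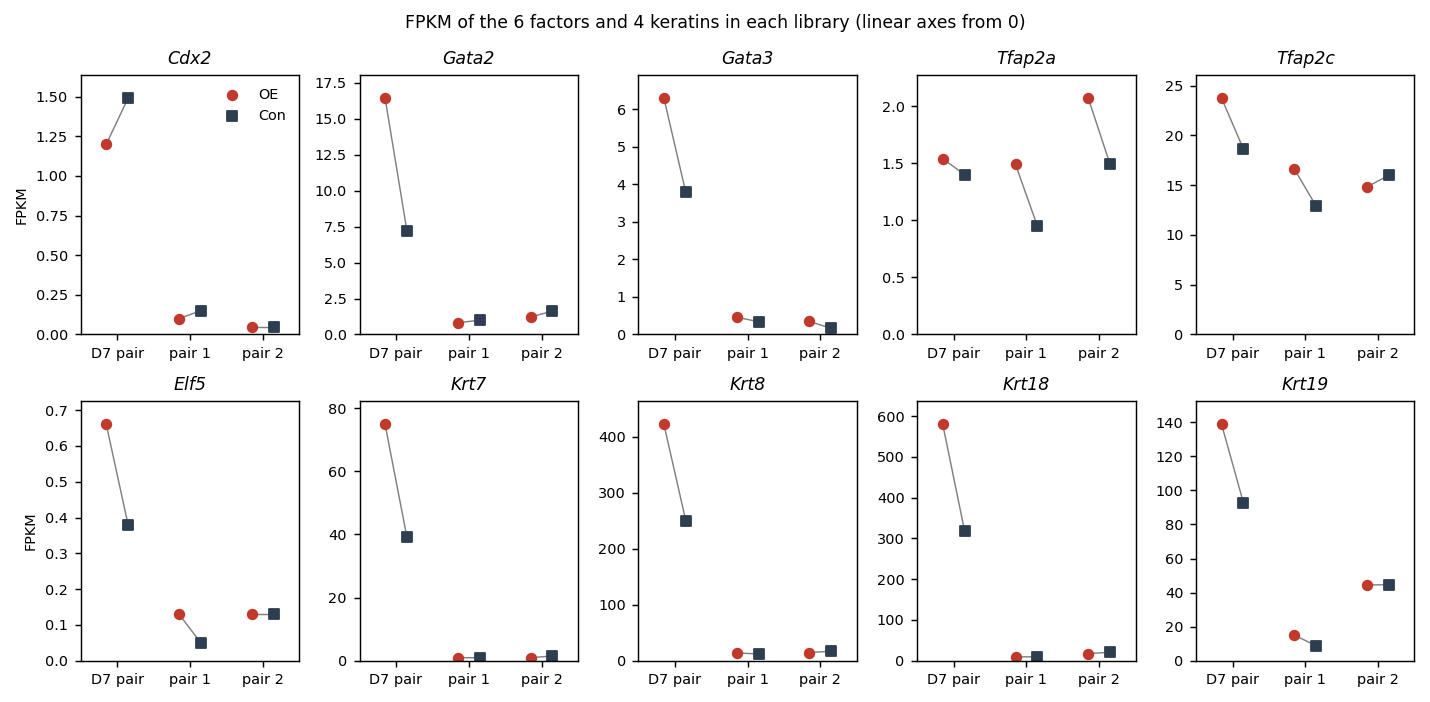
FPKM of each of the 10 genes (linear vertical axes from 0, scaled per gene) in the D7 pair and in pairs 1 and 2, with OE as circles on the left of each pair, Con as squares on the right, and a line joining libraries of a pair. *Krt8* reads 421 and 250.1 in the D7 pair and 17.03 or less elsewhere, *Krt19* is also high in pair 2, and *Tfap2a* shows no separation of the D7 pair.

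The question of how D7 differed from D0 was put to all 6 libraries, with genotype as a term (edgeR, quasi-likelihood F test, Benjamini-Hochberg adjustment over 13809 genes whose FPKM averaged 0.5 or more). Of the 9 genes that passed this filter, 6 were higher in D7 and none was lower, against 6.77% of all tested genes called higher and 3.06% called lower. With the replicate block 8 of the 9 were higher, against 25.6% higher and 23.6% lower over all genes. In every blocked fit of D7 against D0 the spread between pairs 1 and 2 is taken out of the error. Such p-values therefore do not measure how far D7 lies outside the spread between cultures. Both D7 libraries lay above all 4 D0 libraries in 8 of the 9 tested genes, a pattern held by 23.6% of tested genes. *Cdx2* and *Gata3* averaged under 0.5 FPKM in D0 and passed the filter only through the D7 pair, so a difference was a condition of their being tested. Among the other 7 genes 4 were higher, or 6 with the block, and none was lower in either fit. *Elf5* did not pass, and in a fit without the filter its log2 fold change was 2.15 ± 0.50 (SE; adjusted p = 0.0476).

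All log2 fold changes here are D7 over D0. *Krt7* rose by 5.64 ± 0.32 (SE; adjusted p = 0.00222), *Krt18* by 4.93 ± 0.40 (adjusted p = 0.00476) and *Krt8* by 4.50 ± 0.21 (adjusted p = 0.00205). By size of change they ranked 60, 76 and 90 among 13809 genes, and by p-value *Krt8* ranked 6. *Gata3* rose by 3.91 ± 0.35 (adjusted p = 0.00565), *Cdx2* by 3.83 ± 0.48 (adjusted p = 0.0123) and *Gata2* by 3.30 ± 0.40 (adjusted p = 0.0121). *Cdx2* thus had a fold near that of *Gata3*, at a lower level.

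For *Krt19* and *Tfap2c* the call turned on the replicate block, which takes the spread between pairs 1 and 2 out of the error. *Krt19* was higher by 2.16 ± 0.63 without the block (adjusted p = 0.0887) and by 2.42 ± 0.14 with it (adjusted p = 2.159e-05). *Tfap2c* was higher by 0.48 ± 0.15 without it (adjusted p = 0.0999) and by 0.48 ± 0.12 with it (adjusted p = 0.0139). *Tfap2a* did not pass in either fit, at 0.00 ± 0.28 (adjusted p = 0.997) and 0.01 ± 0.19 (adjusted p = 0.964). With a single D7 library left few genes of any kind could be called. Without OE-D7 edgeR called no gene higher (805 at an unadjusted p under 0.05), and the adjusted p was 0.0691 for *Krt8*, 0.113 for *Krt7*, 0.206 for *Krt18*, 0.242 for *Gata3* and 0.276 for *Gata2*, with log2 fold changes between 2.46 and 5.02. Without Con-D7, 28 genes were called higher, *Krt7* and *Krt8* among them. *Krt18* was then at 5.43 (adjusted p = 0.0687), *Gata2* at 4.04 (adjusted p = 0.0687) and *Gata3* at 3.96 (adjusted p = 0.112), so these folds were no smaller while the calls were lost. *Cdx2* fell under the filter without either D7 library.

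**Figure D2:**
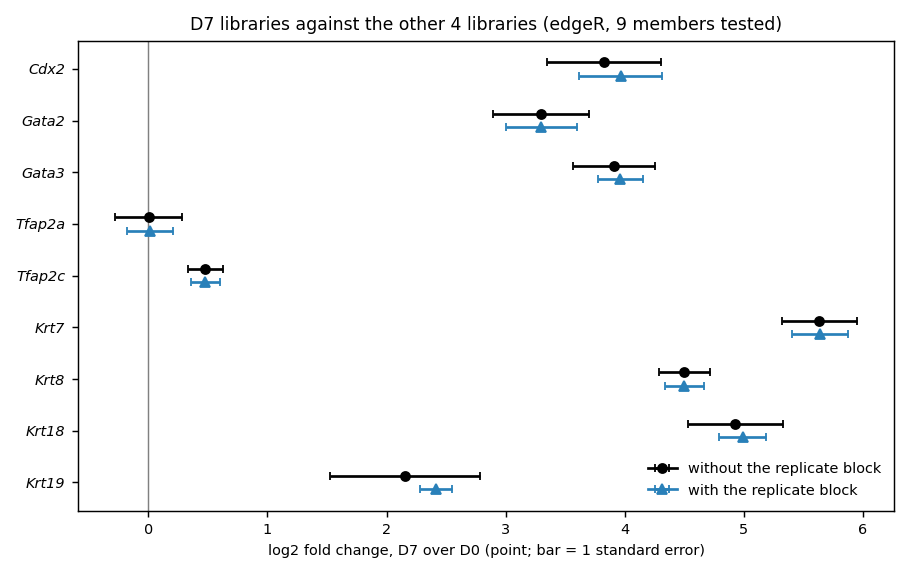
Log2 fold change of D7 over D0 (horizontal axis; point with 1 standard error) for the 9 genes tested, without the replicate block (circles) and with it (triangles). *Krt7*, *Krt18* and *Krt8* lie between 4.50 and 5.64, the 3 called factors between 3.30 and 3.97, and *Tfap2a* at 0.00; the bar of *Krt19* is 0.14 with the block and 0.63 without it.

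Whether *Dppa3* overexpression altered these genes in the D0 cultures was asked of the 4 D0 libraries, where 7 of the 10 genes passed the filter. None was called in either direction. Over all 13494 genes this fit called 0% higher and 0% lower (58 rose and 4 fell by an unadjusted p under 0.05, none of them a member), DESeq2 called 2 genes higher, and with the replicate block 0.763% were higher and 0.126% lower. Without the block *Dppa3* itself was not called, at 5.75 ± 0.32 on the log2 scale (SE; adjusted p = 0.430). With the block *Dppa3* was called (adjusted p = 6.35e-15). The absence of member calls without the block therefore says little about these genes. With the block the log2 fold change of OE over Con was 0.50 ± 0.23 for *Tfap2a* (SE; adjusted p = 0.579), the sole member with an unadjusted p under 0.05 (0.0394). It was 0.30 ± 0.15 for *Krt19*, 0.08 ± 0.13 for *Tfap2c*, -0.04 ± 0.13 for *Krt8*, -0.15 ± 0.13 for *Krt18*, -0.29 ± 0.35 for *Krt7* and -0.39 ± 0.25 for *Gata2*, with adjusted p from 0.658 to 0.978. OE exceeded Con in 8 of the 10 genes in pair 1 and in 2 of them in pair 2, where 6 were lower and 2 equal. The share of all genes with OE above Con was not computed for these pairs. These counts are therefore not a result about the 10 genes. They include *Cdx2* and *Elf5*, at 2 to 6 estimated counts, and *Krt19*, at 44.5 FPKM in OE-2 and 44.6 in Con-2. *Krt19*, high in both libraries of pair 2, moved whenever a pair was broken. Its log2 fold change was 1.63 without Con-2 (adjusted p = 0.00233), -0.76 without OE-2 and -0.57 without Con-1, and 0.14 with all 4 libraries and no block.

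Within the D7 pair OE exceeded Con in 9 of the 10 genes (8 of the 9 tested, against 54.5% of tested genes). *Gata2* was 2.28 times as high in OE-D7 as in Con-D7, *Krt7* 1.91 times, *Krt18* 1.82 times, *Elf5* 1.74 times, *Krt8* 1.69 times, *Gata3* 1.66 times and *Krt19* 1.496 times. *Tfap2c* was 1.27 times and *Tfap2a* 1.1 times as high, and *Cdx2* was the exception at 0.805 times. With 0.5 added to each FPKM, 5 of the 9 tested genes were at least 1.5-fold higher in OE-D7, against 5.02% of tested genes. These are single libraries, so the ratios have no replicate error and no test.

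The difference between the OE effect in the D7 pair and that in the D0 pairs was tested as an interaction. Without the replicate block no member passed (adjusted p = 1 for each), with estimates of 1.56 ± 0.57 for *Gata2*, 1.21 ± 0.44 for *Krt7*, 0.78 ± 0.31 for *Krt8* and 1.02 ± 0.76 for *Krt18* on the log2 scale. With the block these 4 genes passed the threshold and all were positive, against 0.934% of tested genes called positive and 0.507% negative. *Gata2* was at 1.56 ± 0.28 (adjusted p = 0.0028), *Krt18* at 1.00 ± 0.15 (adjusted p = 0.000359), *Krt8* at 0.77 ± 0.15 (adjusted p = 0.00862) and *Krt7* at 1.21 ± 0.31 (adjusted p = 0.0488). The D7 pair has no repeat, so in the blocked fit the spread comes from the difference between pairs 1 and 2 and from values shared across genes, and these p-values do not measure how an OE effect at D7 would vary between cultures. *Krt19*, *Gata3*, *Cdx2*, *Tfap2c* and *Tfap2a* did not pass, with blocked estimates from -0.41 to 0.28. Seen by genotype, *Krt7* was 74.8 times its D0 mean in OE and 32.5 times in Con, *Krt18* 42.2 and 21.1 times, and *Gata2* 16.1 and 5.53 times, whereas *Gata3* was 15.6 times its D0 mean in OE and 15.2 times in Con.

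**Figure D3:**
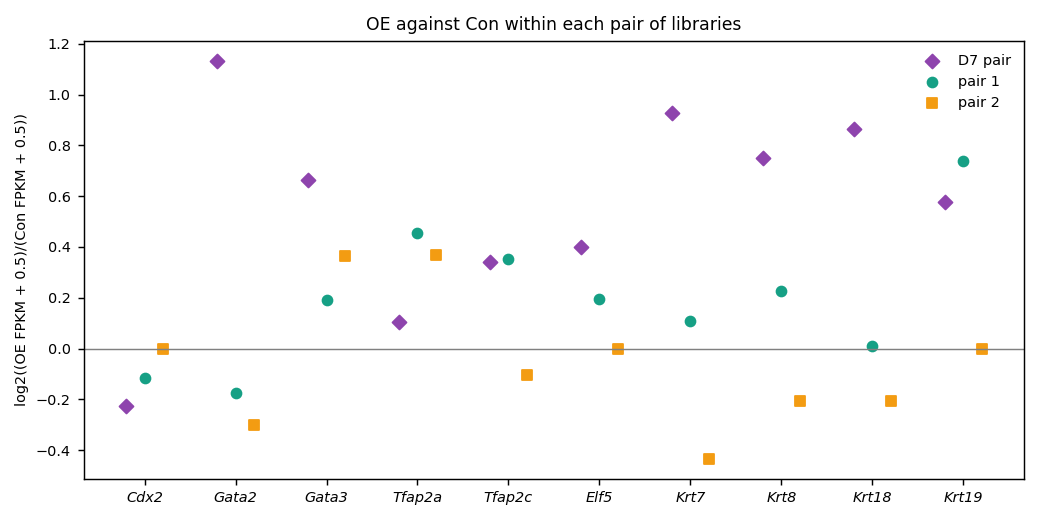
Log2 ratio of OE to Con within each pair (vertical axis, 0.5 added to each FPKM) for the 10 genes, with the D7 pair as diamonds, pair 1 as circles and pair 2 as squares; each point is 1 library over 1 library. *Gata2*, *Krt7*, *Krt8* and *Krt18* lie highest in the D7 pair, *Krt19* and *Tfap2c* are as high in pair 1, and *Cdx2* is below 0 in the D7 pair.

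Other genes of the trophoblast, of its upstream signals and of epithelia were read from lists, whose counts are given beside 6.77% higher and 3.06% lower over all genes in D7 against D0, or 25.6% and 23.6% with the replicate block. Genes that averaged under 0.5 FPKM in D0 were tested only because of their D7 values, and called genes of this kind are pointed out. Genes of the trophectoderm and of trophoblast stem cells were mixed, with 4 of 12 higher, 1 lower and a median log2 fold change of 0.75, where the median of all tested genes was -0.03. With the block 8 were higher and 1 lower, and 1 of the 12, not called, was tested only through D7. *Msx2*, a BMP-responsive homeobox factor, rose to 29.0 FPKM in OE-D7 and 15.3 in Con-D7, against 1.34 to 2.40 in D0, and *Fgfr2*, the receptor through which FGF4 maintains trophoblast stem cells, to 9.79 and 5.26, against 0.68 to 1.12. *Id2*, an inhibitor of helix-loop-helix factors, rose to 91.2 FPKM in OE-D7 and 91.5 in Con-D7, against 37.3 to 47.3. *Eomes*, the T-box factor of trophoblast stem cells, which also marks the primitive streak, was at 0.69 without the block (adjusted p = 0.284) and 0.75 with it (adjusted p = 0.0216), at 4.49 FPKM in OE-D7 and 7.50 in Con-D7 against 2.18 to 5.12 in D0. *Eomes* was named after its values were seen, because with *Cdx2* and *Elf5* it is a defining factor of trophoblast stem cells.

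Of 8 tested genes of differentiated trophoblast 5 were higher and none lower, with a median of 1.94, and 6 were higher with the block. *Plac1* and *Pparg* were tested only through D7, and among the other 6 genes 3 were higher, or 4 with the block. *Plac1*, a trophoblast surface protein, was at 21.2 FPKM in OE-D7 and 6.32 in Con-D7 against 0.21 to 0.37 in D0. *Peg10*, an imprinted retrotransposon-derived gene needed for the placenta, was at 623 FPKM in OE-D7 and 367 in Con-D7 against 104 to 146 in D0, and *Pparg*, a nuclear receptor of labyrinth trophoblast and fat, at 2.23 and 1.02 against 0.06 to 0.13. *Hand1*, which drives trophoblast giant cells and also marks lateral mesoderm, rose by 5.33 ± 0.62 (adjusted p = 0.0107) to 150.2 FPKM in OE-D7 and 71.6 in Con-D7, against 1.35 and 3.83 in the OE and 1.02 and 4.42 in the Con libraries of D0. *Ascl2* had a log2 fold change of -0.48 (adjusted p = 0.490), at 5.20 FPKM in OE-D7 and 3.70 in Con-D7 against 2.65 to 9.60 in D0. The giant cell hormone gene *Prl2c2* and the syncytial gene *Synb* were at 0.28 FPKM or less in every library. *Gcm1*, of the same list, was called higher, at a log2 fold change of 1.86 (adjusted p = 0.0392). *Gcm1* was at 2.75 FPKM in OE-D7 and 1.81 in Con-D7 against 0.38 to 0.75 in D0. *Ascl2*, *Gcm1*, *Prl2c2* and *Synb* were also named after their values were seen. Of the 17 genes listed 12 were measured, and *Tpbpa*, *Tpbpb*, *Prl3d1*, *Prl3b1* and *Cts7* were absent from the deposited genes.

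Of 16 genes of the Hippo pathway and its Tead targets 9 were higher and none lower, with a median of 1.41, and 12 were higher with the block. *Ankrd1* was tested only through D7, and without it the counts are 8 of 15 and, with the block, 11. *Cyr61* rose by 3.72 ± 0.21 (adjusted p = 0.00222) and *Ankrd1* by 6.75 ± 0.33 (adjusted p = 0.00205), both known Yap1 targets, and *Amot*, an angiomotin that holds Yap1 at junctions, by 2.98 ± 0.21 (adjusted p = 0.00385). *Ankrd1* was at 12.4 FPKM in OE-D7 and 7.35 in Con-D7 against 0.03 to 0.13 in D0. *Tead4*, named after its values were seen, was at 7.73 FPKM in OE-D7 and 6.44 in Con-D7 against 6.09 to 7.60 in D0, and did not pass (adjusted p = 0.978). Of 11 BMP-responsive genes 6 were higher and none lower, with a median of 1.04, and 8 were higher with the block. *Msx1*, tested only through D7, was at 2.00 and 1.22 FPKM against 0.12 to 0.41 in D0. *Msx2* and *Id2* are in this list too.

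Of 25 epithelial junction and transport genes 9 were higher and none lower, with a median of 0.50, and with the block 14 were higher and 1 lower. All 25 passed the filter without the D7 pair. *Cldn4*, a tight junction claudin, was at 89.9 FPKM in OE-D7 and 85.8 in Con-D7 against 25.0 to 35.2 in D0, and the junction molecule *F11r* at 57.7 and 46.6 against 20.5 to 23.7. *Grhl2*, a factor of epithelial genes, was at 10.3 FPKM in OE-D7 and 10.4 in Con-D7 against 2.54 to 3.95. Of the 41 other keratins measured, 35 averaged under 0.5 FPKM. Of the 6 tested, 1 was higher, *Krt20*, a keratin of gut and urothelium, at 1.71 and 1.01 FPKM against 0.03 to 0.21. With the block 2 were higher, *Krt20* and *Krt79*, both tested only through D7, and 2 lower, *Krt17* and *Krt42*, the last 3 named after their values were seen. These 41 together summed to 12.3 FPKM in OE-D7 and 12.9 in Con-D7, against 14.5 to 20.2 in D0. Among 8 tested relatives of the 6 factors 2 were higher (with the block 4, and 1 lower), *Elf3* at 52.2 and 46.4 FPKM against 20.6 to 26.5 and *Gata4* at 2.18 and 1.74 against 0.47 to 0.87. None of these lists held a gene called between OE and Con in D0, with or without the block. Over all 13494 genes tested there, none was called without the block, and 0.763% were higher and 0.126% lower with it. At such shares the absence of calls says little about these lists.

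Genes that mark other cells moved in the D7 libraries as well. In bulk RNA, fewer cells of a type and less RNA per cell cannot be told apart. Of 13 tested fibroblast and smooth muscle genes 7 were higher and none lower, with a median of 2.44, and with the block 10 were higher and 1 lower. The 4 genes *Col1a2*, *Col3a1*, *Col5a2* and *Postn* were tested only through D7, and among the other 9 genes 3 were higher, with a median of 0.94. *Acta2*, smooth muscle actin, was at 138 FPKM in OE-D7 and 58.2 in Con-D7 against 0.20 to 0.81 in D0. *Tagln* was at 99.8 and 63.5 FPKM against 0.86 to 1.59, and *Postn*, a matrix protein, at 6.49 and 2.12 against 0.02 to 0.06. The whole list of 17 summed to 735 FPKM in OE-D7 and 437 in Con-D7, against 273 to 292 in D0, and 16 of its 17 genes were higher in OE-D7 than in Con-D7. Of the defining markers, *Col1a1* was at 129 FPKM in OE-D7 and 38.0 in Con-D7 against 0.80 to 1.81 in D0, *Col1a2* at 11.9 and 4.42 against 0.13 to 0.36, and *Col3a1* at 7.42 and 3.12 against 0.02 to 0.14. *Pdgfrb* was at 7.67 and 4.06 FPKM against 1.05 to 5.44, and *Thy1* was lower in D7, at 21.0 and 23.0 FPKM against 30.8 to 53.0. Of 13 tested genes of primitive and visceral endoderm 7 were higher and 1 lower, with a median of 1.496 (9 and 1 with the block). Among the higher were *Lrp2*, *Lamb1* and *Col4a2*, the last at 35.3 and 17.7 FPKM against 2.24 to 4.04. *Apoa1*, also called higher, was tested only through D7, and without it 6 of 12 were higher, or 8 with the block. The list of 19 summed to 346 FPKM in OE-D7 and 228 in Con-D7 against 193 to 208 in D0. The gene called lower was *Lama1*, at 5.04 FPKM in OE-D7 and 3.21 in Con-D7 against 10.3 to 12.1 in D0. Of the defining markers, *Gata4* was called, and *Pdgfra* was called only with the block (adjusted p = 0.00161). *Pdgfra* was at 3.13 FPKM in OE-D7 and 1.26 in Con-D7 against 0.31 to 0.95 in D0. *Gata6* was at 0.82 FPKM in OE-D7 and 0.63 in Con-D7 against 0.11 to 0.58, and *Sox17* at 0.29 and 0.28 against 0.06 to 0.15. *Foxa2* was at 0.25 and 0.24 FPKM against 0.05 to 0.11, and *Sox7* at 0.43 and 0.32 against 0.36 to 0.86. The part of these cell types in the keratin values was not tested.

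Of 7 tested genes of the primitive streak and mesoderm 2 were higher, *Hand1* and *Foxf1*, and 5 with the block. *Foxf1*, *Mixl1* and *T* were tested only through D7, and among the other 4 genes 1 was higher, or 3 with the block. *Foxf1* was at 2.74 FPKM in OE-D7 and 0.83 in Con-D7 against 0.00 to 0.05. That list of 11 summed to 161 FPKM in OE-D7 and 88.1 in Con-D7 against 5.39 to 12.6 in D0, with *Hand1* making up most of it in the D7 pair. Of 6 tested genes of surface ectoderm and neural crest 2 were higher, *Ets1* and *Msx1* (with the block 3, and 2 lower). *Msx1* was tested only through D7, and without it 1 of 5 was higher, or 2 with the block. The list sum was 20.7 FPKM in OE-D7 and 17.5 in Con-D7 against 11.5 to 24.7. Of 7 blood and endothelial genes none was higher and 1, *Cd34*, was lower, and with the block 1 was higher, a gene tested only through D7, and 3 lower. Of 12 pluripotency genes none was higher and 5 were lower, with a median of -0.92, and with the block 11 were lower. *Esrrb* was at 69.9 FPKM in OE-D7 and 83.8 in Con-D7 against 164 to 191, *Klf4* at 50.3 and 37.0 against 97.4 to 101, and *Tfcp2l1* at 19.2 and 16.9 against 31.9 to 38.6. *Pou5f1* fell by 0.88 ± 0.13 on the log2 scale (adjusted p = 0.0196).

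**Figure D4:**
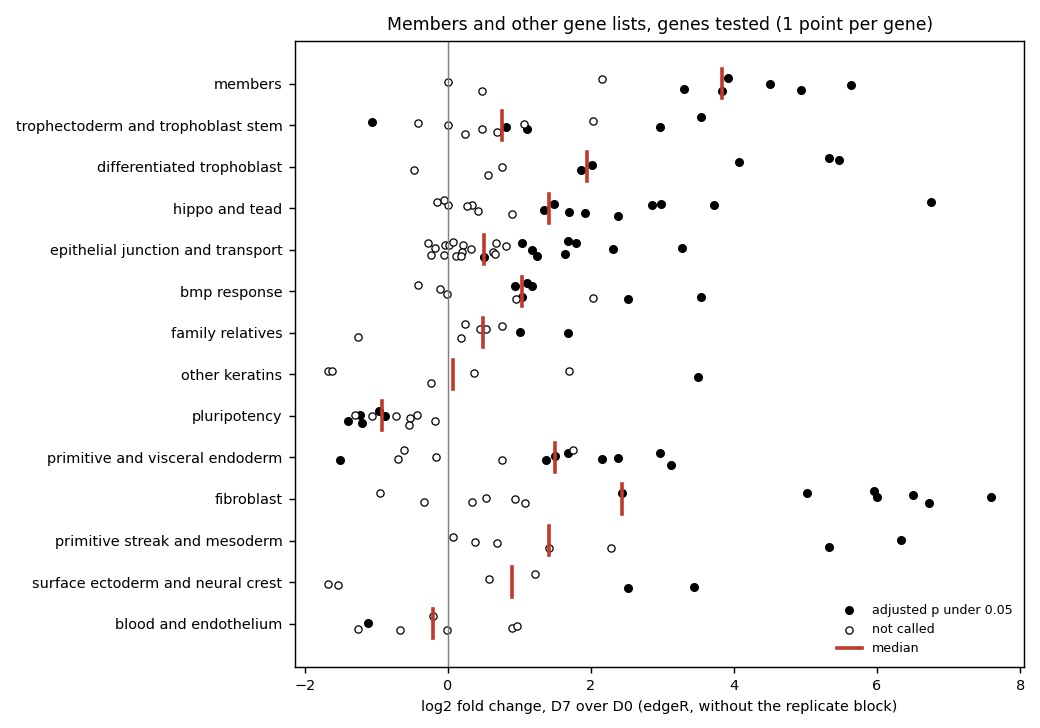
Log2 fold change of D7 over D0 (horizontal axis, fit without the replicate block) for the 9 members tested, in the top row, and for the tested genes of 13 other lists, 1 point per gene, filled where the adjusted p was under 0.05, with a bar at each list's median. The members lie between 0.00 and 5.64, the fibroblast list has 7 filled points, a median of 2.44 and values up to 7.59 (*Acta2*), and the pluripotency list has a median of -0.92.

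The genes whose profile over the 6 libraries lay nearest to the mean of the 4 keratins (Euclidean distance of centred log2(FPKM + 0.5), among 12565 genes) were *App*, at a distance of 0.41, *Prss23* at 0.61, *Nxf7* at 0.69, *Ankrd1* at 0.75 and *Tmprss2* at 0.75. *App*, the amyloid precursor protein, was at 91.2 FPKM in OE-D7 and 49.3 in Con-D7, against 3.59 and 5.28 in OE-1 and OE-2 and 2.63 and 5.51 in Con-1 and Con-2. *Prss23* and *Tmprss2* are serine proteases, and *Tmprss2* was at 21.3 and 10.1 FPKM against 0.04 to 0.21. On the same measure *Krt8* lay at 0.64 from the mean of which it is a part, *Krt18* at 0.88, *Krt7* at 1.24 and *Krt19* at 2.47. *Gata2* was the nearest factor at 1.70, ahead of *Gata3* at 2.07, *Tfap2c* at 4.38 and *Tfap2a* at 4.90. *Cdx2* and *Elf5* were too low to be included.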

How the data were processed

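Libraries were sequenced on BGISEQ-500. The authors mapped reads to mm10 with Bowtie2 and quantified genes with RSEM. HISAT and GRCm38.p6 are named instead in the submitters' processing notes, and versions are not given in the sources used here. The authors deposited an estimated count per gene and library, not normalized, and also deposited FPKM, scaled for transcript length and depth and rounded to 2 decimals. Fragments that fit several genes are divided among them by RSEM, so 31.4% to 33.4% of count values were not whole, *Tfap2a* among them. The D7 count columns carry a heading of averages but look like the others. No source says that the libraries came from separate cultures, so the spread behind the p-values may be technical. Without the replicate block it is the spread between libraries, and OE-D7 and Con-D7 count as separate D7 libraries although they belong to the same pair. With the block the spread between pairs is taken out, and what remains is how the difference between OE and Con varied from pair to pair.

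Rounded counts were tested with edgeR 4.0.16 in R 4.3.3 (TMM, factors 0.944 to 1.05, quasi-likelihood F test, Benjamini-Hochberg adjusted p under 0.05) for genes whose FPKM averaged 0.5 or more over the libraries of a fit. The standard error is the size of the log2 fold change divided by the square root of F. Gene numbers matched the reference for 19340 of 19489 rows, 26 symbols turned into dates were restored, and 11 rows had no symbol. Deviations from the genotype mean correlated between OE and Con at 0.881, 0.756 and 0.889 within the 3 numbers (12565 genes) and at -0.034 or below between numbers, so the numbers were taken to pair the samples. Such deviations cancel out within a genotype, which pushes the values between numbers to be negative. The value of 0.889 cannot tell a shared culture from the D7 label that both libraries carry. The pairing comes from the data, since no source states it. The strain labels differ in each of the 6 samples and were not used. Alternatives were other size factors, no filter, DESeq2 1.42.0, the replicate block, leaving out each library, all 3 pairs, and pseudocounts of 0.1 and 1 FPKM in place of 0.5 for ratios within a pair. Tests were tried on simulated data first.

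The genes, lists and tests were chosen with earlier results of these data known. Genes named were the members, *Dppa3*, *Pou5f1*, *Sox2* and *Nanog*, up to 3 called genes with the smallest p per list, and the 5 nearest profiles. Lists, 13 in all, covered trophectoderm, differentiated trophoblast, Hippo, BMP response, epithelial junctions, relatives of the factors, other keratins, pluripotency, endoderm, fibroblasts, mesoderm, surface ectoderm, and blood and endothelium.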

Additional observations from a re-analysis of the deposited data

Results flagged for a closer look

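In 4 genes the OE effect in the D7 pair, from 1 library per genotype, lay apart from that in the D0 pairs in a fit with the replicate block (log2 scale): *Gata2* by 1.56, *Krt7* by 1.209, *Krt8* by 0.7716 and *Krt18* by 1.003. Each was called by edgeR with the block and not without it (adjusted p = 1), and the spread in the blocked fit comes from the D0 pairs, so how the D7 difference would repeat was not tested. In all 4 OE exceeded Con in the D7 pair, while *Gata2* was lower in OE in both D0 pairs and the 3 keratins were higher in OE in pair 1 and lower in pair 2. *Dppa3* itself was 131 FPKM in OE-D7 and 26.2 in Con-D7, a narrower gap than in D0. The fibroblast list (735 FPKM in OE-D7 and 437 in Con-D7) and *Hand1* (150.2 and 71.6 FPKM) were also higher in OE-D7, and their part in these differences was not tested.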

How the results depend on the processing

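The blocked fit has few residual degrees of freedom, each D7 value rests on 1 library per genotype, and genes of few counts (*Cdx2*, *Elf5*) are limited by depth. Of 13494 genes, OE against Con without the replicate block called 0 higher and 0 lower. The replicate block gave 103 and 17, DESeq2 2 higher, DESeq2 with the block (added after seeing the data) 32 and 2, and all 3 pairs with the block 1 lower. Leaving out 1 library gave 1 to 86 higher and 0 to 4 lower, the 86 without Con-2. For D7 against D0, 935 genes were higher and 422 lower. DESeq2 gave 1499 and 995, the replicate block 3531 and 3256, and DESeq2 with the block 2849 and 2565. Leaving out 1 library gave 0 to 1615 higher and 0 to 918 lower, with 0 and 0 without OE-D7, 28 and 0 without Con-D7, 361 and 68 without OE-1, 307 and 58 without OE-2, and 1615 and 918 without Con-2. For the difference in the OE effect, no gene was called without the block (at an unadjusted p under 0.05, 47 positive and 22 negative). The replicate block gave 129 and 70 and DESeq2 1 and 1. Leaving out 1 library gave 0 to 4 higher and 0 to 6 lower. The fit could not be made without a D7 library.

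No member was called between OE and Con in D0, except *Krt19* without Con-2. Directions of OE against Con changed with the libraries used. With the D7 pair added and the D7 label as a term, *Gata2*, *Krt7*, *Krt8* and *Krt18* were 0.17, 0.25, 0.21 and 0.17 (log2). With all 3 pairs and the block they were 0.35, 0.50, 0.26 and 0.26. In the D0 libraries alone, without the block, they were -0.40, -0.30, -0.05 and -0.18. Within D0 *Gata2* kept its direction, at -0.67 to -0.062 with 1 library left out. Leaving out 1 library gave -0.058 to 0.21 for *Tfap2c*, -0.57 to 0.049 for *Krt7*, -0.23 to 0.17 for *Krt8*, -0.63 to 0.41 for *Krt18* and -0.76 to 1.63 for *Krt19*. In D7 against D0, *Tfap2a* was -0.038 without the filter, -0.12 to 0.12 with a D0 library left out, -0.18 without Con-D7 and 0.21 without OE-D7. *Krt19* was also called higher there by DESeq2 (adjusted p = 0.00147) and without Con-2 (adjusted p = 0.0149). In the fits with all 6 libraries the 6 called members kept direction and call, and the replicate block changed no member's D7 call but those of *Krt19* and *Tfap2c*. The causes were not tested.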
